A study of Astyanax mexicanus with 8 samples.

Results

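The slc2a genes encode the GLUT family of sugar transporters, and they were described here in spheroids of 2 Astyanax mexicanus liver-derived cell lines. Members were all rows of the expression table whose gene name, with case ignored, starts with slc2a followed by a digit. There were 20 such rows among 27420 listed genes, with 19 distinct names, since 2 rows are both named slc2a9l1. The lines are SFL, labelled surface liver-derived cells, and CFL, labelled cave liver-derived cells and titled Pachon. Both are labelled wild type (WT), and both were kept as free-floating 3D spheroids for 28 days after seeding at 10000, 25000, 50000 or 100000 cells per well. Each line gave 4 libraries, 1 per density, and a standard deviation (SD) over a line therefore holds the effect of density. With 1 line per fish form, line and form cannot be told apart, and nothing in the labels says that libraries of a line came from separate cultures.

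Most GLUT proteins carry hexoses and related molecules across membranes down their concentration gradient. In mammals, GLUT1 supplies basal glucose uptake in many cells, GLUT2 is the low-affinity carrier of hepatocytes, GLUT3 is a high-affinity carrier best known from neurons, and GLUT4 responds to insulin. Other members take fructose (GLUT5), urate (GLUT9) or myo-inositol (GLUT13), and some, such as GLUT8 and GLUT10, lie mostly on membranes inside the cell. Teleost fish kept duplicates of several of these genes, which carry the suffixes a and b. Levels are in TPM as the authors deposited them, in which reads are scaled to transcript length and to the total of the library, so that they can be compared between genes. The read depth behind each value is unknown, and a value of 0 is described as listed at 0.

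The label of the cells was checked against marker genes. Of the hepatocyte markers, the liver fatty acid binding protein gene fabp10a was listed at 0 in all 4 SFL libraries and stood at 2.05 TPM or less in CFL, and the hepatocyte regulator hnf4a stood at 0.31 TPM or less in every library, and ttr was listed at 0 in all 8. Other hepatocyte markers were present: rbp4 averaged 263 TPM, cebpa 122 TPM and fgb 39.8 TPM in SFL, which made up most of the SFL sum, against 0.16, 7.82 and 3.39 TPM in CFL, and cps1 was the higher in CFL (10.5 TPM against 3.03 TPM). At lower levels, tat also averaged higher in CFL (1.84 TPM against 0.005 TPM), whereas apoa1a, apoa2 and tfa averaged higher in SFL. The summed level of the 18 listed hepatocyte markers was 395 to 498 TPM in SFL and 18.4 to 34.5 TPM in CFL, and that of 10 biliary and epithelial markers was 13366 to 16869 TPM and 1244 to 1765 TPM. Keratin genes made up most of the latter, such as krt18b (4177 TPM in SFL and 441 TPM in CFL on average) and krt4 (2500 and 85.6 TPM). In the other direction, sox9a averaged 1.355 TPM in SFL and 28.5 TPM in CFL, and epcam stayed at 0.09 TPM or less in every library. Of 10 endothelial markers the sum was 124 to 195 TPM in SFL and 17.5 to 33.7 TPM in CFL, with cdh5 at 0.03 TPM or less in every library; kdr (86.8 TPM in SFL and 2.698 TPM in CFL on average) and kdrl (69.3 and 22.1 TPM) made up most of it. The 12 mesenchymal markers summed to 562 to 668 TPM in SFL and 184 to 315 TPM in CFL, with members on both sides: tagln averaged 312 and 80.8 TPM and acta2 99.0 and 0.31 TPM, whereas pdgfra averaged 0.14 and 13.7 TPM and pdgfrb 0.71 and 6.5 TPM. The 10 neural markers summed to 3.75 to 4.30 TPM in SFL and 746 to 1102 TPM in CFL, almost all of it snap25a, with elavl3 at 0.09 TPM or less. The 6 blood and immune markers summed to 1.39 to 3.07 TPM over all 8 libraries. All of these sums but that of the blood and immune markers separated the lines, and only the neural sum was the higher in CFL. Several of the transporter genes described next also differed with line, in both directions, and the part of the markers in those results was not tested. In bulk RNA, fewer cells of a type and less RNA per cell cannot be told apart.

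The family was carried by a pair of GLUT1 genes, and the lines differed in which of them they held. SFL libraries held both slc2a1a and slc2a1b, whereas CFL libraries held slc2a1b with slc2a1a close to 0. The 20 members together summed to 247, 285, 234 and 321 TPM in SFL at 10000, 25000, 50000 and 100000 cells per well. In CFL they summed to 271, 239, 70.6 and 99.2 TPM at the same densities. The sums of the lines interleaved at the smaller densities, and those of CFL at 50000 and 100000 lay below every SFL library. Both GLUT1 genes together held between 79.1% and 89.4% of the summed level in SFL. In CFL they held 80.5% and 78.7% at 10000 and 25000 cells per well, and 53.4% and 55.8% at 50000 and 100000.

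**Figure D1:**
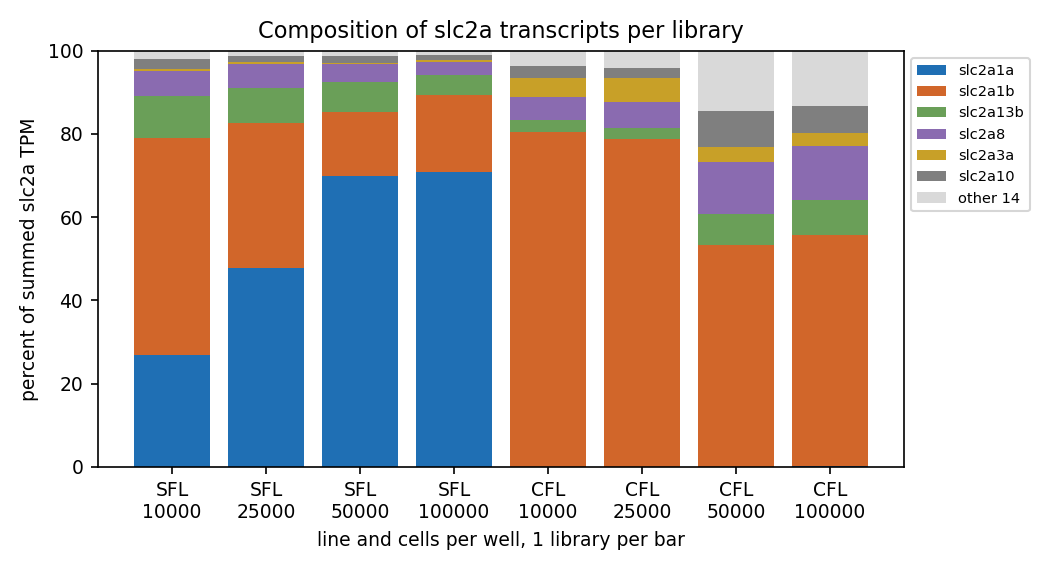
Share of the summed slc2a TPM held by 6 genes and by the other 14 together (percent, stacked from 0), with 1 bar per library. In SFL the share of slc2a1a goes from 26.9% at 10000 cells per well to 70.8% at 100000, and in CFL that of slc2a1b is between 53.3% and 80.5%.

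In SFL the order of mean levels was slc2a1a (148 ± 66.5 TPM, SD, n = 4), slc2a1b (80.8 ± 41.3), slc2a13b (20.2 ± 4.89), slc2a8 (13.1 ± 3.24), slc2a10 (4.58 ± 1.15) and slc2a6 (2.59 ± 0.42). The ranges of slc2a1a and slc2a1b overlapped, as did those of slc2a13b and slc2a8, although slc2a13b was the higher of the latter pair in all 4 libraries. In CFL the order was slc2a1b (125 ± 91.5 TPM, SD, n = 4), slc2a8 (12.8 ± 2.96), slc2a3a (8.01 ± 5.96), slc2a13b (6.93 ± 1.32), slc2a10 (6.56 ± 0.56), slc2a9l1 (ENSAMXG00000043633, 5.10 ± 0.73) and slc2a2 (3.43 ± 0.93). Here slc2a1b stood clear of every other member in each library, whereas the ranges of each pair of neighbours from slc2a8 down to slc2a9l1 overlapped. A mean of at least 1 TPM was reached by 6 members in SFL and by 7 in CFL, and by 4 in both lines, namely slc2a1b, slc2a8, slc2a10 and slc2a13b.

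**Figure D2:**
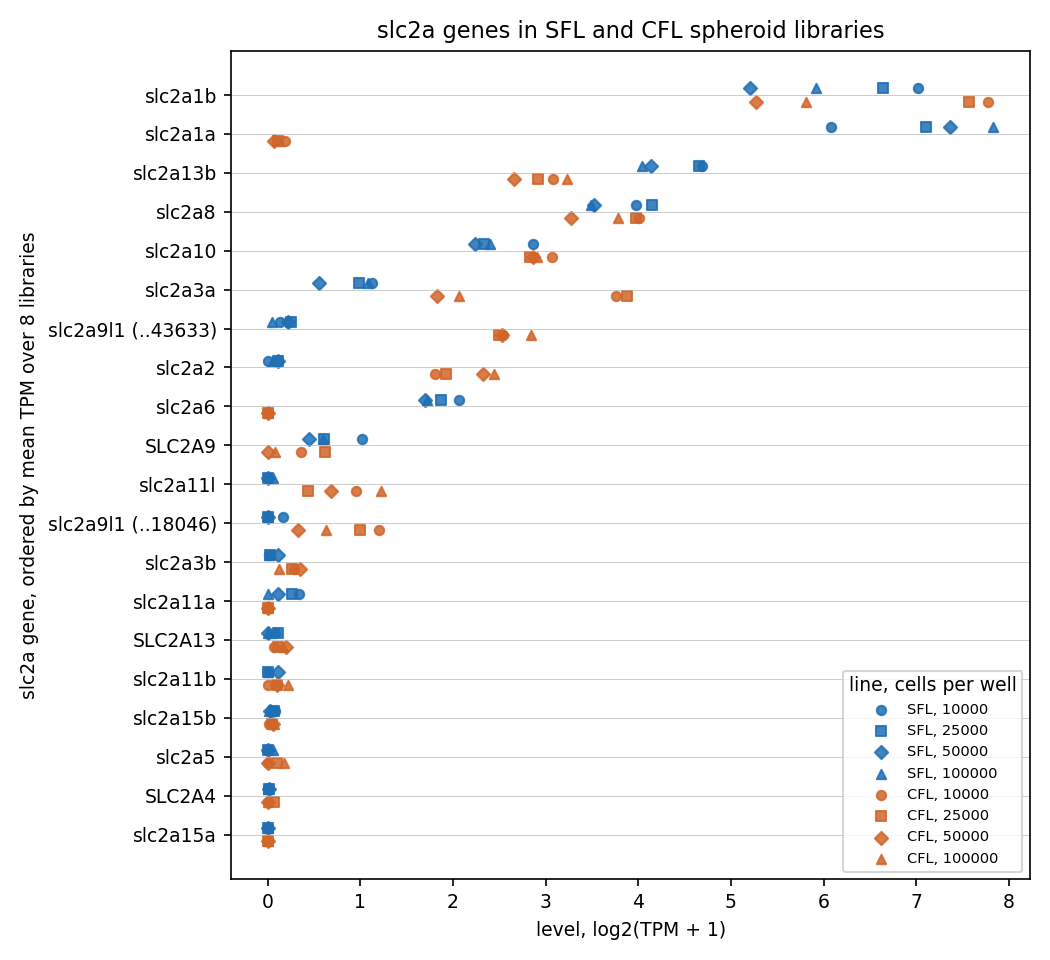
Level of each of the 20 slc2a genes on the log2(TPM + 1) scale, with 1 point per library, coloured by line and shaped by seeding density; genes are ordered by their mean TPM. The points of slc2a1a, slc2a2, slc2a6 and slc2a9l1 (ENSAMXG00000043633) separate by line, and those of slc2a1b spread by density within each line.

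The first comparison asked which transporters differed between CFL and SFL. It was fitted with limma on log2(TPM + 1) over the 13783 genes with a mean of at least 1 TPM, with line and log2(density) as terms. Of the 20 members, 9 passed that filter and 7 of these were called at an adjusted p-value under 0.05, beside 58.9% of all tested genes. Of the calls, 4 were higher in CFL (27.6% of all tested genes were) and 3 were lower in CFL (31.3% were). Since 5 of the 9 passed the filter through 1 line alone, with a mean under 1 TPM in the other, their differences follow in part from the filter and the count is only a description. Just inside the filter was slc2a6 with a mean of 1.296 TPM over the 8 libraries, and just outside were slc2a11l and SLC2A9 with 0.41 TPM each.

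The GLUT1 gene slc2a1a (ENSAMXG00000024783) stood at 66.4, 137, 164 and 227 TPM in SFL at 10000, 25000, 50000 and 100000 cells per well, and at 0.14, 0.08, 0.05 and 0.09 TPM in CFL. The lines did not come near each other at any density. The log2 difference, CFL minus SFL, was -6.97 (SE 0.26, limma adjusted p = 1.77e-07), and only 23 of the 13783 tested genes, this one included, differed by as much in either direction. At single densities it was -5.89, -6.99, -7.29 and -7.71, from 10000 to 100000.

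Its paralog slc2a1b (ENSAMXG00000016554) was at 129, 99.0, 35.9 and 59.5 TPM in SFL and at 218, 188, 37.6 and 55.3 TPM in CFL in the same order of densities. The ranges of the lines overlapped widely. Its log2 line difference was 0.41 (SE 0.39, limma adjusted p = 0.401), and at the 4 densities it was 0.75, 0.92, 0.07 and -0.10. With density as a factor in the fit, the same difference had an SE of 0.18 and a limma adjusted p of 0.0707. A difference between the lines in this gene was therefore not shown, and neither SE shows that the lines are alike.

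Among the other glucose carriers of the plasma membrane, slc2a2 and slc2a3a were called higher in CFL. slc2a2 (ENSAMXG00000006312), the GLUT2 gene, stood at 2.5, 2.79, 4 and 4.44 TPM in CFL and at 0, 0.08, 0.08 and 0.04 TPM in SFL from 10000 to 100000 cells per well, a log2 line difference of 2.05 (SE 0.15, limma adjusted p = 7.06e-06). All CFL libraries lay above all SFL libraries. slc2a3a (ENSAMXG00000009319), a GLUT3 gene, stood at 12.6, 13.7, 2.56 and 3.17 TPM in CFL and at 1.19, 0.98, 0.47 and 1.12 TPM in SFL, a log2 line difference of 1.94 (SE 0.39, limma adjusted p = 0.00281). The groups did not overlap, but the gap was 2.63 and 2.89 on the log2 scale at the smaller densities and 1.28 and 0.98 at the larger. Its paralog slc2a3b did not pass the filter and stayed at 0.27 TPM or less in every library.

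The genes named slc2a9l1, after the urate carrier GLUT9, were also higher in CFL, one in the filtered fit and the other in a fit with no filter. The row ENSAMXG00000043633 stood at 4.83, 4.64, 4.75 and 6.19 TPM in CFL and at 0.10, 0.19, 0.16 and 0.03 TPM in SFL, a log2 line difference of 2.44 (SE 0.14, limma adjusted p = 1.87e-06). Of the same name, row ENSAMXG00000018046 did not pass the filter, at 1.3, 1, 0.25 and 0.55 TPM in CFL against 0.12 TPM in 1 SFL library and 0 in the other 3, and the fit with no filter on low values gave 0.75 (SE 0.14, limma adjusted p = 0.00378). Reads of near-identical paralogs can be split between rows in such estimates, so values of rows with 1 name are uncertain. The remaining GLUT9 gene, SLC2A9, did not pass the filter either, at 0.36 to 1.02 TPM in SFL and 0 to 0.53 TPM in CFL, with overlapping ranges. With no filter it was called lower in CFL (-0.40, SE 0.13, limma adjusted p = 0.0377).

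The members called lower in CFL, besides slc2a1a, were slc2a6 and slc2a13b. slc2a6 (ENSAMXG00000012392), whose mammalian counterpart GLUT6 is a carrier of internal membranes, stood at 3.17, 2.65, 2.25 and 2.30 TPM in SFL and was listed at 0 in all 4 CFL libraries, a fitted log2 difference of -1.84 (SE 0.13, limma adjusted p = 5.80e-06). No fold is given against a group listed at 0. slc2a13b (ENSAMXG00000017725), a gene of the proton-coupled myo-inositol carrier, stood at 24.7, 24.2, 16.6 and 15.5 TPM in SFL and 7.45, 6.58, 5.29 and 8.39 TPM in CFL. Every SFL library lay above every CFL library, with a log2 line difference of -1.41 (SE 0.18, limma adjusted p = 0.000218), although the gap at 100000 cells per well was -0.81 against -1.49 to -1.73 at the other densities.

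slc2a8 and slc2a10, also genes of carriers known from internal membranes, had smaller line differences. slc2a10 (ENSAMXG00000014482), whose human counterpart is the gene of arterial tortuosity syndrome, stood at 6.27, 4.04, 3.71 and 4.28 TPM in SFL and 7.37, 6.13, 6.25 and 6.50 TPM in CFL. CFL was the higher line at each density, but the ranges overlapped through SFL at 10000. The log2 difference of 0.46 (SE 0.15, limma adjusted p = 0.0254) was small, and the call was lost without SFL at 25000 (0.40, adjusted p = 0.0722), SFL at 50000 (0.40, 0.0616), CFL at 10000 (0.47, 0.0656) or CFL at 100000 (0.39, 0.0841). It was also lost after quantile normalization (0.43, 0.0510) and without both 50000 libraries (0.40, 0.0560), so in 6 of 17 alternatives. Over these alternatives the adjusted p ranged from 0.00690 to 0.0841. slc2a8 (ENSAMXG00000031971) stood at 14.8, 16.8, 10.5 and 10.2 TPM in SFL and 15.1, 14.8, 8.68 and 12.7 TPM in CFL, with a log2 line difference of -0.02 (SE 0.18, limma adjusted p = 0.918) whose sign turned after other scalings.

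**Figure D3:**
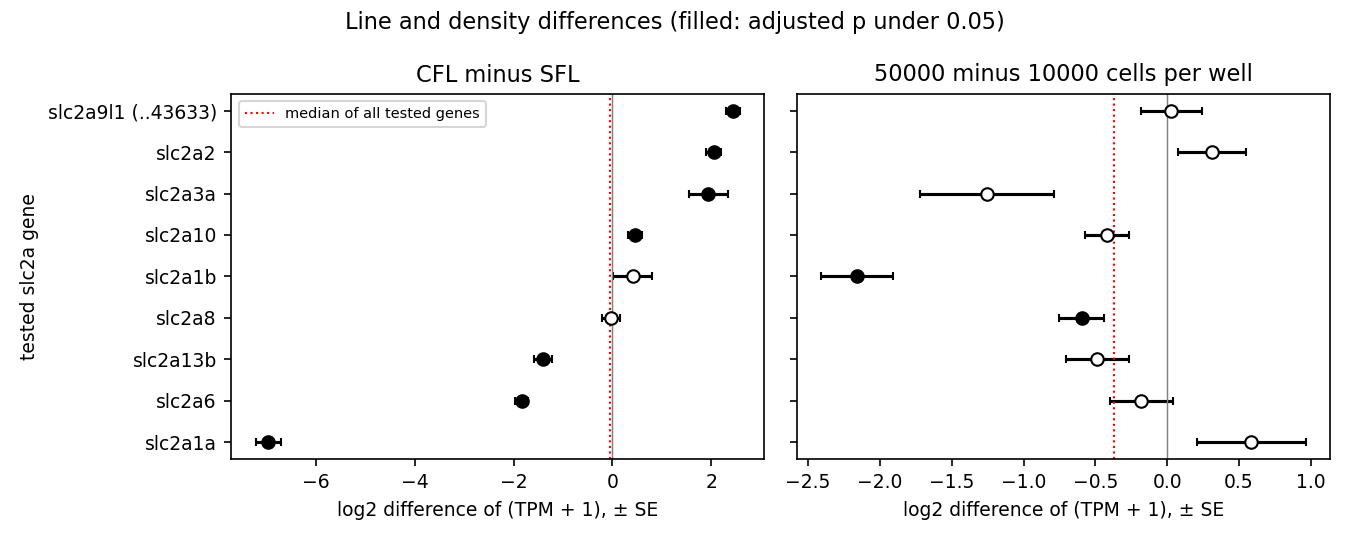
Log2 differences of (TPM + 1) with their SE for the 9 tested slc2a genes: CFL minus SFL on the left, 50000 minus 10000 cells per well on the right. Filled points have a limma adjusted p under 0.05 (7 on the left, 2 on the right), and dotted red lines mark the median of all tested genes, -0.04 and -0.37.

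The 11 members below the filter never exceeded 1.34 TPM. Of these, 8 stayed under 0.3 TPM in every library: slc2a3b, slc2a5 (the fructose carrier GLUT5), slc2a11a, slc2a11b, SLC2A13, slc2a15a, slc2a15b (needed for pigment cell development in medaka) and SLC2A4. SLC2A4, the gene name of the insulin-responsive carrier, reached at most 0.05 TPM, in CFL at 25000, and slc2a15a was listed at 0 in all 8 libraries. slc2a11l was at 0.94, 0.35, 0.61 and 1.34 TPM in CFL and at 0.04 TPM or 0 in SFL. The fit with no filter on low values took all of the 11 but slc2a15a. Of those fitted, 3 were called higher in CFL (slc2a9l1, ENSAMXG00000018046, slc2a11l and slc2a3b), beside 21.5% of all genes above 0, and 2 lower (SLC2A9 and slc2a11a), beside 22.6%. Lines did not overlap in 9 of the 20 members, 6 of them past the filter and 3 below it (slc2a9l1, ENSAMXG00000018046, slc2a11l and slc2a3b); over all 27420 listed genes, lines did not overlap in 32.5%.

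The second comparison was across seeding densities. As deposited, most genes called at the larger densities were lower there: the median of all tested genes was -0.37 on the log2 scale at 50000 against 10000 cells per well and -0.25 at 100000 against 10000. Median-of-ratios scaling moved these medians to 0.06 and 0.03, so a change is reported beside them. The libraries also differed in other traits. Genes above 0 numbered 18374 in SFL and 19258 in CFL at 10000, and 17935 and 17819 at 50000. Ribosomal protein genes held 17.2% and 21.3% of the TPM at 10000, and 22.1% and 27.3% at 50000. With 1 library per line and density, an effect of density and such library traits cannot be told apart. An F test over the 4 densities, with line in the limma fit, called 2 of the 9 tested members, slc2a1b and slc2a8, beside 35.9% of all tested genes. A slope per doubling of density, common to the lines, called 0 members and 0% of genes, with 5026 genes at an unadjusted p under 0.05.

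slc2a1b differed between densities in the F test over both lines. Its shared slope of -0.59 per doubling was not called (SE 0.16, limma adjusted p = 0.0888). The gene was lower at both larger densities than at both smaller ones in each line. From 10000 to 50000 cells per well it went from 129 to 35.9 TPM in SFL and from 218 to 37.6 TPM in CFL, and at 100000 it stood at 59.5 and 55.3 TPM, above 50000 and below 25000 in each line. Its log2 change at 50000 against 10000 was -2.16 (SE 0.25, limma adjusted p = 0.000822), and -1.64 after median-of-ratios scaling (limma adjusted p = 0.00310). At 100000 it was -1.53 (SE 0.25, limma adjusted p = 0.00772), and -1.30 with an adjusted p of 0.05001, just over the threshold, without CFL at 10000. With 50000 and 100000 set against 10000 and 25000, a contrast added after the data were seen, slc2a1b fell by 1.70 (SE 0.18, limma adjusted p = 0.000394), and only 0.566% of tested genes had a value as low. The F test gave a limma adjusted p of 0.00219, and it stayed under 0.05 in each of 15 alternatives, at 0.0214 or less.

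**Figure D4:**
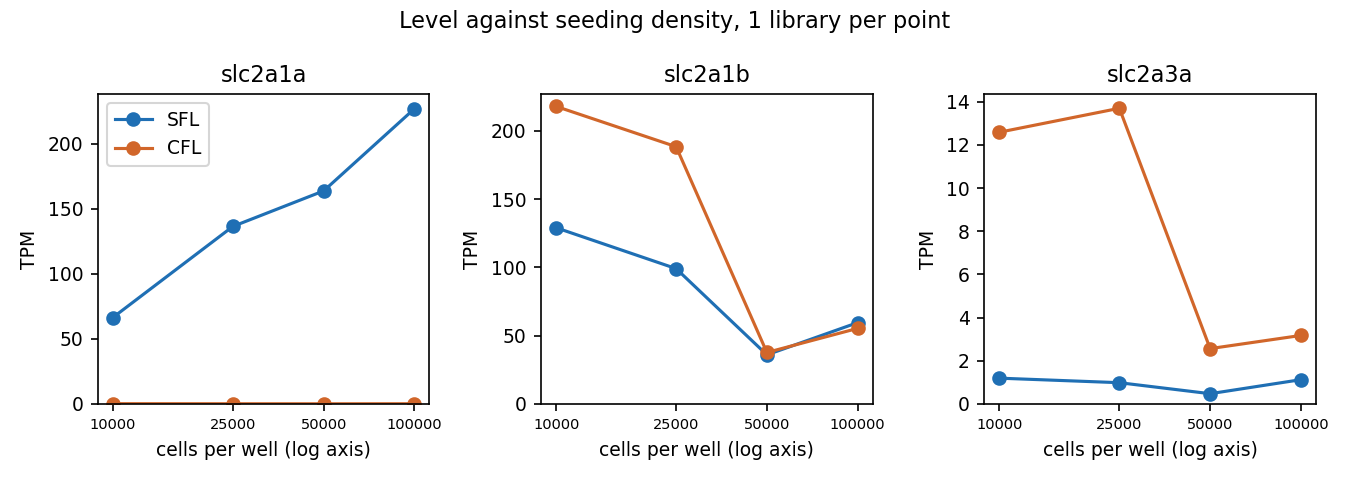
TPM of slc2a1a, slc2a1b and slc2a3a against seeding density (cells per well, log axis) in SFL and CFL, with 1 library per point and no error bars because there is 1 library per line and density. In SFL slc2a1a goes from 66.4 to 227 TPM while slc2a1b goes from 129 to 59.5 TPM, and in CFL slc2a1b and slc2a3a are both lower at 50000 than at 25000.

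For 50000 against 10000 cells per well, 2 members (slc2a1b and slc2a8) were called lower, beside 40.1% of all tested genes, and at 100000 only slc2a1b, beside 23.6%. No member was called at 25000 against 10000, where 0% of all genes were called with 374 at an unadjusted p under 0.05. slc2a8 changed by -0.60 at 50000 (SE 0.16, limma adjusted p = 0.0201) and its F test had a limma adjusted p of 0.0351, a call that was lost in 11 of 15 alternatives, among them median-of-ratios scaling (0.716), quantile normalization (0.821) and 6 of the 8 fits with 1 library left out (0.0584 to 0.138). After median-of-ratios scaling the change at 50000 was -0.11 (limma adjusted p = 0.609), near the median of all genes. Its call at 50000 was also lost without SFL at 10000 (-0.63, adjusted p = 0.0699), CFL at 10000 (-0.56, 0.0925) or CFL at 50000 (-0.45, 0.144), and over 15 alternatives that adjusted p ran from 0.00748 to 0.742.

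slc2a3a followed slc2a1b in CFL by its values, from 12.6 and 13.7 TPM at the smaller densities to 2.56 and 3.17 TPM at the larger ones. The ratio of slc2a1b to slc2a3a in CFL was 17.3, 13.7, 14.7 and 17.4, so in that line both stood in nearly the same proportion at every density. In SFL the ratio was not as steady, at 108, 101, 76.4 and 53.1 from 10000 to 100000, with slc2a3a at 1.19 TPM or less. The shared change of slc2a3a over both lines at 50000 was -1.25 (SE 0.47, limma adjusted p = 0.0694), which missed the threshold. It passed when the larger densities were set against the smaller ones (-1.06, SE 0.33, limma adjusted p = 0.0342), without SFL at 100000 (adjusted p = 0.0456) and without CFL at 100000 (0.0442). At 50000 it was -0.92 after median-of-ratios scaling (adjusted p = 0.129) and -0.80 after quantile normalization (0.199), and it passed with a pseudocount of 0.1 (-1.72, limma adjusted p = 0.0387). The value rested on the CFL libraries at 10000 and 50000. It was -0.79 without CFL at 10000 and -0.81 without CFL at 50000, but -1.71 without SFL at 10000 and -1.70 without SFL at 50000. In that contrast of larger against smaller densities 3 members were called lower (slc2a1b, slc2a3a and slc2a8), beside 45.1% of all tested genes.

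slc2a1a had the opposite order in SFL. Its 4 SFL libraries stood in the order of seeding density, with 3.42 times as much at 100000 as at 10000. The ratio of slc2a1a to slc2a1b within a library, which does not change when a library is divided by a factor, was 0.515 at 10000, 1.38 at 25000, 4.56 at 50000 and 3.82 at 100000. slc2a1b was thus the more abundant GLUT1 transcript in SFL spheroids seeded at 10000 and slc2a1a in the other 3 libraries, while both together stood at 195, 236, 200 and 287 TPM. The slope of slc2a1a in SFL alone, added after the data were seen, was 0.51 per doubling (SE 0.07), and 18 of the 13783 genes, this one included, had a slope as high. Its limma adjusted p was 0.370, and in that fit 0% of genes were called, with 1773 at an unadjusted p under 0.05. After median-of-ratios scaling the SFL values of slc2a1a were 55.5, 118, 193 and 240 TPM, in the same order.

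The response of slc2a1a over both lines was not called, with limma adjusted p of 0.358 in the F test and a change at 50000 of 0.59 (SE 0.38, limma adjusted p = 0.252). Since its CFL values lie near 0, its change there on the log2(TPM + 1) scale is near 0 too. Without CFL at 10000 the change at 50000 was 1.31 (adjusted p = 0.0109), that at 100000 was 1.57 (0.0320) and the F test passed (0.0172), because the level at 10000 then rested on SFL alone. Without SFL at 10000 the change at 50000 was -0.14.

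slc2a2, slc2a6, slc2a9l1 (ENSAMXG00000043633), slc2a10 and slc2a13b were called in none of the density tests as deposited. In CFL slc2a2 stood at 2.5 and 2.79 TPM at the smaller densities and at 4 and 4.44 TPM at the larger, with a change at 50000 over both lines of 0.31 (SE 0.24, limma adjusted p = 0.324). For slc2a6, slc2a10 and slc2a13b the sign of the change at 50000 depended on the scaling. slc2a13b passed at 50000 without SFL at 100000 (adjusted p = 0.0305) or CFL at 100000 (0.0284) with an unchanged value of -0.49, and in the F test without CFL at 100000 (0.0480).

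The third comparison set the density response of one line against that of the other. The interaction of line and log2(density) was called in 0 of the 9 members and 0% of all tested genes, with 560 genes at an unadjusted p under 0.05. The largest value among the members was that of slc2a3a at -0.58 per doubling (SE 0.27, limma adjusted p = 0.99997), followed by slc2a1a at -0.54 (SE 0.10, limma adjusted p = 0.678). With density as a factor beside the interaction, 0 genes were called as well (1547 at an unadjusted p under 0.05), and slc2a1a had a limma adjusted p of 0.184.

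Other genes of sugar handling were then set beside the transporters, each list as a count beside all tested genes. Genes named for a line difference were picked as the largest called ones in these same data, so their p-values are only a description. Among them hnf1ba, gck, gpib, rhoq, ARRDC4, slc50a1 and akr1b1.1 (ENSAMXG00000007652) passed the filter through 1 line alone. Their mean was under 1 TPM in the other line, and their differences follow in part from the filter. Of 15 tested genes of glucose phosphorylation and glucose 6-phosphate use, 2 were called higher and 7 lower in CFL, with a median log2 line difference of -0.38 against -0.04 for all tested genes, of which 27.6% were higher and 31.3% lower. The largest differences were in hkdc1, a hexokinase family gene (mean of 1.03 ± 0.27 TPM over the SFL libraries and of 21.9 ± 3.73 TPM over those of CFL, SD, n = 4; log2 difference 3.49, SE 0.16, limma adjusted p = 5.66e-07), and in gck, glucokinase, which works at high glucose in liver and pancreas. gck stood at 2.87, 9.03, 11.2 and 11.2 TPM in SFL and at 0.14 TPM or less in CFL, a log2 line difference of -3.00 (SE 0.30, limma adjusted p = 4.94e-05). gpib, one of a pair of glucose 6-phosphate isomerase genes, was at 3.51, 6.23, 6.59 and 11.7 TPM in SFL and 0.46 TPM or less in CFL (log2 difference -2.60, SE 0.21, limma adjusted p = 1.31e-05).

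The gene of that list with the highest mean level was the other isomerase gene gpia (773 ± 57.3 TPM in SFL, 580 ± 103 in CFL, SD, n = 4; log2 difference -0.43, limma adjusted p = 0.00408). Named after their values were seen, the hexokinase genes hk1 and hk2 were lower at 50000 than at 10000 cells per well, as slc2a1b was. hk1 went from 270 to 125 TPM in SFL and from 210 to 84.8 TPM in CFL (log2 change -1.20, limma adjusted p = 0.000478). hk2 went from 95.0 to 41.5 TPM and from 41.5 to 10.8 TPM (log2 change -1.51, limma adjusted p = 0.00107). In the whole list 5 of 15 genes were called lower and 0 higher at 50000, where 40.1% of all tested genes were lower, with a median change of -0.21 against -0.37 for all tested genes; after median-of-ratios scaling 4 were lower and 3 higher, with a median of 0.23, beside 17.6% lower and 19.0% higher among all tested genes. hk1 and hk2 were called lower after that scaling too (-0.68 and -1.003, limma adjusted p = 0.00348 and 0.00593).

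Of the other sugar carriers on the list, 5 genes were tested, with 3 called higher and 0 lower in CFL, beside 27.6% and 31.3% of all tested genes. slc50a1, the animal SWEET gene, averaged 0.59 ± 0.63 TPM in the SFL libraries against 3.26 ± 2.04 TPM in CFL (SD, n = 4), a log2 line difference of 1.40 (SE 0.24, limma adjusted p = 0.00126). The sugar-phosphate carrier genes slc37a2 and slc37a1 differed by 0.45 (limma adjusted p = 0.00793) and 0.54 (0.0431), and the call of slc37a1 was lost without a filter or a density term, and without SFL at 10000, 50000 or 100000 or CFL at 10000, 25000 or 100000 (log2 difference 0.42 to 0.60 and adjusted p from 0.0608 to 0.114 with these libraries left out). The most abundant was slc5a3b, a gene of the sodium-coupled myo-inositol carrier, at 187, 121, 35.0 and 90.9 TPM in SFL and 128, 91.7, 35.5 and 104 TPM in CFL. It was lowest at 50000 in both lines, with a log2 change against 10000 of -2.10 (limma adjusted p = 0.000378). Of the sodium-glucose carriers of the slc5a group, named after their values were seen, slc5a1 reached at most 0.43 TPM and slc5a2 at most 0.03 TPM. mfsd4b, another tested gene of this list and also named afterwards, stood at 5.44 to 15.98 TPM in SFL and 2.58 to 14.15 TPM in CFL. Its log2 change at 50000 against 10000 was -1.74 (limma adjusted p = 0.000564). In this list 4 of the 5 tested genes were called lower at 50000 (40.1% of all tested genes), and 3 after median-of-ratios scaling (17.6%), with 0 higher.

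Of 30 tested genes that move GLUT proteins to or from the cell surface, 4 were called higher and 11 lower in CFL, with a median of -0.17, beside 27.6% and 31.3% of all tested genes. At 50000, 16 were called lower and 1 higher (median -0.39), where 40.1% of all tested genes were lower. After median-of-ratios scaling these counts at 50000 were 11 lower and 8 higher (median 0.05), beside 17.6% and 19.0% of all tested genes. The line counts also depended on the scaling. They were 7 higher and 11 lower after median-of-ratios scaling, beside 4302 and 4372 of 13730 tested genes. After quantile normalization they were 9 higher and 10 lower, beside 4565 and 4290 of 13783, with a median line difference of 0.0023. rhoq, the gene of the small GTPase TC10 of insulin-driven GLUT4 traffic, averaged 24.1 ± 3.65 TPM in the SFL libraries and 0.33 ± 0.13 TPM in those of CFL (SD, n = 4; log2 difference -4.23, SE 0.16, limma adjusted p = 1.75e-07). sort1a, a sortilin gene, was at 3.58 ± 1.06 and 32.3 ± 3.79 TPM (2.88, SE 0.18, limma adjusted p = 2.57e-06). Its paralog sort1b, named after its values were seen, went the other way, with a higher mean in each line. It was at 144 ± 54.3 and 45.6 ± 15.9 TPM (-1.63, SE 0.27, limma adjusted p = 0.00102). ARRDC4, an arrestin-like gene related to TXNIP, was at 8.27 ± 0.55 and 0.75 ± 0.20 TPM (-2.41, SE 0.14, limma adjusted p = 1.77e-06). The most abundant was txnipa, whose product draws GLUT1 from the surface in mammals. It stood at 412 to 546 TPM in SFL and 458 to 579 TPM in CFL, with a log2 line difference of 0.04 (SE 0.11, limma adjusted p = 0.776). rab10 differed by 0.37 (limma adjusted p = 0.00407), and a second row named RAB10 may share reads with it.

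Of 26 tested genes known to regulate GLUT genes or their traffic, 7 were called higher and 4 lower in CFL (median -0.0006), beside 27.6% and 31.3% of all tested genes. At 50000, 15 were called lower and 0 higher (median -0.59), where 40.1% of all tested genes were lower. After median-of-ratios scaling 7 were lower and 3 higher at 50000, of 25 tested (median -0.08), beside 17.6% and 19.0% of all tested genes. hnf1ba, of a homeobox factor family that in mammals acts on the GLUT2 gene, stood at 4.10 ± 0.65 TPM in SFL (SD, n = 4) and was listed at 0 in all CFL libraries (fitted log2 difference -2.34, SE 0.14, limma adjusted p = 2.16e-06). myca, a Myc gene, was at 13.7 ± 1.19 and 3.10 ± 0.81 TPM (-1.85, SE 0.16, limma adjusted p = 2.06e-05). Its paralog mycb, named after its values were seen, went the other way, with a higher mean in each line. It was at 16.99 ± 3.85 and 32.1 ± 2.81 TPM (0.90, SE 0.16, limma adjusted p = 0.00123). hif1an, the asparagine hydroxylase that restrains HIF, was at 17.99 ± 1.80 and 66.8 ± 4.41 TPM (1.84, SE 0.10, limma adjusted p = 1.76e-06). hif1ab, which encodes the oxygen-sensitive HIF1 subunit, was at 69.1, 65.0, 36.8 and 40.1 TPM in SFL and 140, 119, 60.1 and 78.6 TPM in CFL, with a log2 change at 50000 against 10000 of -1.05 (limma adjusted p = 0.000584), and of -0.53 after median-of-ratios scaling (0.00811).

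Of 16 tested genes that handle fructose, urate or inositol, 2 were called higher and 6 lower in CFL, with a median of -0.14, beside 27.6% higher and 31.3% lower among all tested genes. ISYNA1, which makes inositol phosphate from glucose 6-phosphate, was at 1332 ± 380 TPM in SFL and at 609 ± 185 TPM in CFL (SD, n = 4; log2 difference -1.13, SE 0.25, limma adjusted p = 0.00503). Rows named akr1b1.1 (aldose reductase) went both ways: ENSAMXG00000007652 averaged 0.51 ± 0.24 TPM in the SFL libraries and 106 ± 15.8 TPM in those of CFL, and ENSAMXG00000034098 at 198 ± 18.9 and 18.3 ± 5.46 (SD, n = 4), with limma adjusted p of 2.19e-08 and 1.24e-06. Here too the rows share a name and their separate values are uncertain. At 50000 cells per well 5 genes of this list were called lower and 1 higher, with a median of -0.31, where 40.1% of all tested genes were lower. After median-of-ratios scaling 2 were lower and 6 higher, with a median of 0.14, beside 17.6% and 19.0% of all tested genes.

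Genes whose pattern over the 8 libraries was most like that of slc2a1a were ranked by the root mean square (RMS) difference of mean-centred log2(TPM + 1), among 10739 tested genes with a symbol. The nearest was scgn, which encodes the calcium sensor secretagogin, with an RMS of 0.40 and levels of 130 to 178 TPM in SFL and 0.30 to 0.75 TPM in CFL. Next were CPA1 (0.43), a carboxypeptidase gene, fa2h (0.52), a fatty acid hydroxylase gene, acta2 (0.56), smooth muscle actin, and emilin1a (0.59), an elastic fibre gene. Of these, CPA1 and acta2 also had SFL values in the order of density as deposited, at 477, 637, 785 and 855 TPM for CPA1 and at 94.1, 98.1, 100.55 and 103 TPM for acta2. Division by the median-of-ratios factors (0.85 for SFL at 50000 and 0.95 at 100000) did not keep that order, with 50000 above 100000 in both genes. The measure describes these 8 libraries only.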

How the data were processed

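RNA of 8 spheroid libraries was sequenced as stranded poly(A) libraries with single reads of 75 bases, per the labels' protocols. The deposited table gives TPM per gene, estimated by the authors; STAR 2.7.3a and RSEM 1.3.0 are named per the submitters' processing notes, and genome build, annotation and strand setting are not given in the sources used here. Each library sums to 1000000, so depth is unknown and no counting interval can be given. Columns were mapped by sample title, with 0 left unmapped. The members, lists and tests were chosen with earlier results of these data known.

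Values were used as log2(TPM + 1), and genes with a mean of at least 1 TPM over the 8 libraries were tested with limma 3.58.1 in R 4.3.3 (eBayes with trend, Benjamini-Hochberg over all 13783 tested genes). Fold changes on this scale understate low genes. With 1 library per line and density, no fit holds a spread between replicates, and p-values rest on departures from the fitted terms. In the fit of line and log2(density) these hold departures from a straight line and differences between the lines in their response to density. With line and density as factors they hold the latter. Part of any departure may be technical. Same-density libraries of the lines deviated together (r over genes of 0.51, 0.49, 0.64 and 0.31 from 10000 to 100000), and seeding density, from the titles, was taken to pair them; libraries of neighbouring densities deviated together as much (0.52 for SFL at 25000 with CFL at 10000, 0.39 for SFL at 100000 with CFL at 50000), so the values separate the smaller from the larger densities.

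Named genes were all members; in each list, the 3 called genes with the largest line difference and the 2 with the highest mean; and the 5 nearest to slc2a1a; some genes this rule names are not reported here. Alternatives were 2 scalings, a pseudocount of 0.1, no filter or a mean of 5 TPM, no trend, density terms, and each library left out. List counts after scaling, the contrast of larger against smaller densities, slopes per line and fits without both 50000 libraries were chosen after seeing the data. Of the 20 member names, 16 match a RefSeq symbol (AstMex3_surface); none of its coordinates was used.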

Additional observations from a re-analysis of the deposited data

Results flagged for a closer look

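Groups of 4 libraries, 1 gene in 1 line, were examined for a library far from the other 3. Of 36 such groups, 7 held a library past Dixon's critical value for the gap to its neighbour; chance flags about 1 in 20 groups of true replicates, and these libraries differ in density. One concerns a tested gene: slc2a9l1 (ENSAMXG00000043633) stood at 6.19 TPM in CFL at 100000 cells per well and at 4.64 to 4.83 TPM in the other CFL libraries. The rest are values near 0. In SFL these were slc2a11b at 0.08 TPM and slc2a3b at 0.08 TPM at 50000, slc2a9l1 (ENSAMXG00000018046) at 0.12 TPM at 10000, and slc2a5 and slc2a11l at 0.04 TPM each at 100000. In CFL it was SLC2A4 at 0.05 TPM at 25000. In all of these near-0 groups but that of slc2a3b, the other libraries of the line were listed at 0. Any value above 0 is then flagged whatever its size, so 7 of 36 cannot be read against that chance rate.

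In 2 of the 20 genes all 3 larger densities lay above 10000 cells per well in one line and below it in the other. The share of all listed genes with this pattern was not computed, so the count is only a description. Both cases rest on values near 0, those of slc2a1a in CFL and those of slc2a15b in both lines. One was slc2a1a, which went from 66.4 TPM at 10000 to 227 TPM at 100000 in SFL, and from 0.14 TPM to 0.09 TPM in CFL. Its interaction with density was tested, with a limma adjusted p of 0.678. The other was slc2a15b, which went from 0.06 to 0.01 TPM in SFL and from 0.01 to 0.05 TPM in CFL between those densities, where the difference was not tested.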

How the results depend on the processing

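The line differences of slc2a1a, slc2a2, slc2a3a, slc2a6, slc2a9l1 (ENSAMXG00000043633) and slc2a13b kept their direction and stayed under 0.05 in every alternative computed for them. Of these, 4 (slc2a2, slc2a3a, slc2a6 and slc2a9l1) have no value with a filter at 5 TPM. All but slc2a13b passed the main filter through 1 line alone. For those 5 genes the unchanged calls follow in part from the filter and are only a description. A pseudocount of 0.1 moved the log2 line difference to 4.56 for slc2a2, -4.74 for slc2a6, 4.62 for slc2a9l1 (ENSAMXG00000043633), 2.65 for slc2a3a and -9.50 for slc2a1a, so its size depends on the pseudocount for genes near 0 in one line. Pairing the libraries by density (replicate block), the line fit called 9815 genes in place of 8120, and it changed 0 calls among the tested members. Depth is unknown, so values near 0 cannot be given a detection limit.

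Counts over all genes moved by more than 1.5 times as follows, where the cause was not tested. The F test called 4942 genes as deposited, 2662 after quantile normalization, 2467 without both 50000 libraries and 3172 to 4287 with single libraries left out, lowest without CFL at 50000. The slope called 0 genes, and 3080 without both 50000 libraries, slc2a1b among them (-0.47, adjusted p = 0.0137). For 50000 against 10000 the count was 5827, and 3592 (without CFL at 50000) to 5554 with single libraries left out. For 100000 against 10000 it was 3446, and 2293 after median-of-ratios scaling, 1387 after quantile normalization, 1895 without a filter and 1087 to 3264 with single libraries left out, where the counts without SFL at 10000 (1621), SFL at 100000 (1134), CFL at 10000 (1426) and CFL at 100000 (1087) moved that far. Of the calls at 50000 against 10000, 5.23% were higher as deposited, 51.9% once scaled by median of ratios and 49.8% after quantile normalization; at 100000 these shares were 5.77%, 50.5% and 38.7%. For 25000 against 10000 leaving out single libraries gave 0 to 1 genes.

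Signs turned in values that were not called. The line difference of slc2a8 was 0.016 after median-of-ratios scaling, 0.057 after quantile normalization, 0.050 without both 50000 libraries and -0.15 to 0.11 with single libraries left out. That of slc5a3b was 0.022 after quantile normalization and ran from -0.59 to 0.16 with single libraries left out, and that of txnipa ran from -0.049 to 0.11 likewise. Slopes on density turned to 0.016 (slc2a6, quantile), 0.022 and 0.065 (slc2a10, median-of-ratios and quantile), and 0.021 and 0.041 (slc2a13b, likewise). In CFL alone slopes were 0.0098 for slc2a13b and -0.023 for slc2a1a, which stood at 0.14 TPM or less there. That of slc2a6 in CFL was 0 because the gene was listed at 0 in all CFL libraries, so no sign turned. The slope of slc2a9l1 (ENSAMXG00000043633) was -0.035 with a pseudocount of 0.1, -0.025 in SFL alone and -0.021 to 0.067 with single libraries left out. At 50000, median-of-ratios and quantile values were 0.0012 and 0.088 for slc2a6 and 0.034 and 0.20 for slc2a10, and quantile gave 0.063 for slc2a13b; leaving out 1 library gave -0.14 to 1.31 for slc2a1a and -0.059 to 0.12 for slc2a9l1 (ENSAMXG00000043633). At 100000, quantile gave 0.0025 for slc2a6, 0.082 for slc2a10 and 0.12 for slc2a13b, which was 0.064 after median-of-ratios scaling and -0.65 to 0.15 with single libraries left out; slc2a9l1 (ENSAMXG00000043633) was -0.14 with a pseudocount of 0.1 and -0.14 to 0.35 with single libraries left out. The interaction of slc2a6 was -0.031 after quantile normalization, and with 1 library left out it ran from -0.079 to 0.23 for slc2a10, from -0.59 to 0.018 for slc2a1b and from -0.12 to 0.20 for slc2a8.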

Other observations

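By the same measure of likeness, a ranking added after the values were seen, the genes nearest to slc2a1b were clint1a (RMS 0.16), SPHK1 (0.19), myo5aa (0.19), npas2 (0.20) and slc4a7 (0.20). clint1a, a clathrin adaptor gene, stood at 22.6, 21.1, 5.03 and 8.74 TPM in SFL and at 37.3, 29.6, 6.11 and 10.6 TPM in CFL from 10000 to 100000 cells per well. slc4a7, a bicarbonate carrier gene, stood at 13.5, 10.0, 3.82 and 5.61 TPM in SFL and 21.9, 19.2, 4.89 and 7.21 TPM in CFL.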
